A study of Mus musculus with 2 samples.

Results

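The genes described here were the 6 insulin-like growth factor binding protein genes Igfbp2, Igfbp3, Igfbp4, Igfbp5, Igfbp6 and Igfbp7, chosen by gene family among the 31055 features counted in both libraries. BECs (blood vessel endothelial cells) were sorted from orthotopic KPC pancreatic tumors and orthotopic PyMT breast tumors, and each tumor model gave 1 droplet-based single-cell library. All mice were wild-type C57BL6 females of 6 weeks at implantation of 100000 tumor cells, and tumors were digested on day 10 with collagenase D at 500 U/mL for KPC and 400 U/mL for PyMT. KPC cells are a line from a mouse pancreatic tumor, and PyMT cells come from mammary tumors driven by the polyoma middle T antigen. The sources used here do not give the number of mice behind a library. With 1 library per tumor model no test between conditions was possible, so values are given with 95% intervals for counting error only, and tumor model, organ, digestion and library cannot be told apart.

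IGF-binding proteins are secreted proteins that hold IGF1 and IGF2 outside cells and set how much of either reaches the IGF1 receptor. Proteases such as HTRA1 and the pappalysins release the ligand by cutting the binding protein, and several members also act through the matrix or the cell surface. IGFBP7 binds IGFs weakly and is best known as a vascular basement membrane protein that binds CD93 on endothelial cells.

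The members lie at 5 loci (GRCm38, GENCODE M21). Igfbp2 on chromosome 1 (72824503 to 72852474, forward strand) and Igfbp5 (72857932 to 72874884, reverse strand) face each other tail to tail across 5457 bases. Igfbp3 (7206086 to 7213923, reverse strand) and Igfbp4 (99041244 to 99054392, forward strand) are both on chromosome 11. Igfbp6 is on chromosome 15 (102144362 to 102149511, forward strand). Igfbp7 on chromosome 5 (77349240 to 77408041, reverse strand) is the longest, and it overlaps the counted genes Polr2b and Gm34648, so its count holds a part that could be theirs unless the counting used strand. All 6 were found in the RefSeq promoter table (GRCm38.p6). The 150 bases before the start are printed for Igfbp3, Igfbp4 and Igfbp7, the members that had UMIs in every class of both libraries. Capitals mark matches, on either strand, to the TATA box TATAAA and its variant TATATA, to the GC box GGGCGG, to the core of the hypoxia response element (ACGTG) or to the nuclear receptor half-site AGGTCA, which COUP-TFII also binds.
Igfbp3, chr11:7213924-7214073, reverse strand: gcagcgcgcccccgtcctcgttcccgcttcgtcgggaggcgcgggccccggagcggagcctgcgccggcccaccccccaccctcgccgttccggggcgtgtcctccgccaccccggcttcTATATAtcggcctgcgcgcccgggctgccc
Igfbp4, chr11:99041094-99041243, forward strand: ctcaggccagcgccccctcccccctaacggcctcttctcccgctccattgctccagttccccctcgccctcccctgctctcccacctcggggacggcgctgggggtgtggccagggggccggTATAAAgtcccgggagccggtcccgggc
Igfbp7, chr5:77408046-77408195, reverse strand: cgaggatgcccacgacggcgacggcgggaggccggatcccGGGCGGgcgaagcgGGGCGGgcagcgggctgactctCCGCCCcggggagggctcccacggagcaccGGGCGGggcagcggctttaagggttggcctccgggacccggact
In the 250 bases before the start, the Igfbp3 promoter held 1 TATATA, found in 5.56% of 27025 promoters. The Igfbp4 promoter held 1 TATAAA, present in 13.0% of promoters. The Igfbp7 promoter held 4 GC boxes, a sequence present in 32.9% of promoters, and no TATA match of either form. The half-site AGGTCA was in 13.8% of promoters and in none of these 3 windows, and ACGTG was in 16.6% and in the Igfbp7 window, upstream of the printed bases.

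A barcode entered with 500 or more genes and a mitochondrial share of UMIs below 10%, and 9591 KPC barcodes (median 3141 UMIs) and 11744 PyMT barcodes (median 3978 UMIs) did. The libraries shared 170 barcode sequences, 1.66% of KPC and 1.36% of PyMT barcodes. Each barcode was assigned by UMI sums, in this order, to tumor (Krt8+Krt18, 5 or more), fibroblast (Col1a1+Col1a2, 10), lymphatic (Mmrn1+Prox1, 3), pericyte (Notch3+Higd1b, 2), venule (Ackr1+Selp, 3), artery (Gja5+Sema3g, 2), tip (Apln+Angpt2, 3) and capillary (Car4+Cd300lg, 2), and the rest were called other. The venule class held 640 KPC and 360 PyMT barcodes, artery 105 and 126, tip 1302 and 1991, lymphatic 802 and 633, and the Car4/Cd300lg class 1297 and 2597. The sort removed cells positive for podoplanin, EpCAM or CD45, so lymphatic, fibroblast and tumor barcodes are those left after it. Their levels need not hold for all such cells in the tumors. In PyMT the capillary label did not hold. None of its 5 markers outside the rule peaked in the Car4/Cd300lg class of PyMT, against 5 of 5 in KPC, and the summed level of all 7 capillary markers was 6261 CPM there against 5882 CPM in venule and 11681 CPM in the pericyte class. The class is therefore called by its rule genes in both libraries. Of 6 outside markers, 4 in KPC and 3 in PyMT peaked in the venule class and 3 in each library in the tip class, while all 7 peaked in artery and all 5 in lymphatic. The Car4/Cd300lg class was shallow in KPC (median 1879 UMIs) and not in PyMT (4254 UMIs), whereas venule barcodes held 3837 and 3486 UMIs.

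Levels are CPM, the member's UMIs summed over a class and scaled to 1e6 UMIs of that class. UMIs were counted at transcript 3' ends and a member's level was compared only between classes, not with another member's. Igfbp7 took 440688 of the KPC and 449842 of the PyMT UMIs, Igfbp3 42526 and 86652, and Igfbp4 36601 and 26083. The 3 remaining genes were sparse, with 730 and 487 UMIs of Igfbp5, 989 and 161 of Igfbp6, and 172 and 10 of Igfbp2. Blood vessel classes, including other, held 89.6% and 97.8% of the Igfbp3 UMIs, and 40.2% and 79.9% of the Igfbp4 UMIs. These shares also follow how many UMIs of all genes the classes held. By level, blood vessel classes held 1433 and 1732 CPM of Igfbp3 against 969.8 and 1582 CPM over all kept barcodes. For Igfbp4 they were below that level in both libraries, at 552.8 and 426.2 CPM against 834.7 and 476.3 CPM.

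**Figure D1:**
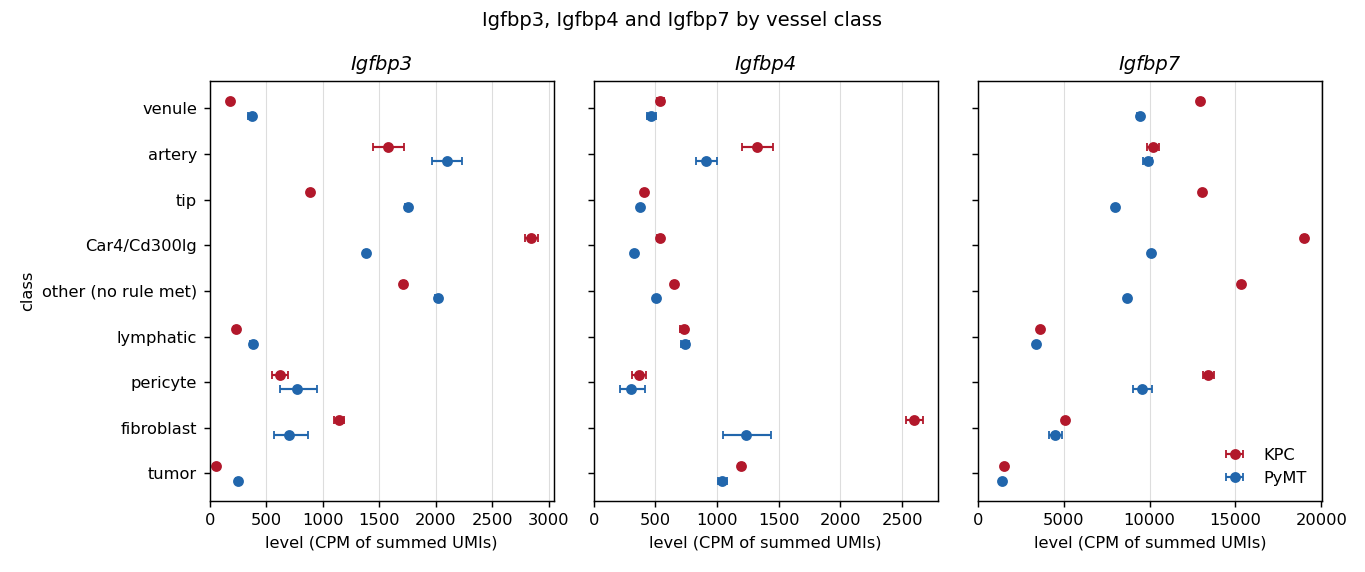
Level of Igfbp3, Igfbp4 and Igfbp7 (x axis, CPM of summed UMIs, linear from 0) in the 9 classes (y axis) of the KPC (red) and PyMT (blue) library; points are class sums and bars exact 95% Poisson intervals. Igfbp3 was 183 and 372 CPM in venule, below every other blood vessel class, and Igfbp4 was higher in artery than in the other blood vessel classes.

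Igfbp3, the main carrier of IGFs in blood plasma, was low in venules. Its level in the KPC venule class was 183 CPM (interval 167 to 199) against 2847 CPM in the Car4/Cd300lg class, a 15.6-fold lower level (log2 ratio -3.96, interval -4.09 to -3.84). In PyMT it was 372 CPM (interval 342 to 404) in venule against 1383 CPM, 3.72-fold lower (log2 ratio -1.89, interval -2.02 to -1.77). The direction was shared by both libraries and the size was not. The venule level was also lower against the sum of all other blood vessel classes, with log2 ratios of -3.12 in KPC and -2.26 in PyMT. Lymphatic barcodes were close to venule, at 231 CPM in KPC and 384 CPM in PyMT, and the PyMT pair was not apart beyond counting error (log2 ratio of lymphatic over venule 0.05, interval -0.10 to 0.20).

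Artery barcodes held 1577 CPM of Igfbp3 in KPC and 2098 CPM in PyMT, and tip barcodes 888 and 1754 CPM. In KPC the Car4/Cd300lg class led and other (1715 CPM) and artery followed without being apart, whereas in PyMT artery and other (2017 CPM) led together and the Car4/Cd300lg class came below tip. The Igfbp3 ratio of artery over Car4/Cd300lg was therefore -0.85 in KPC (interval -0.98 to -0.72) and 0.60 in PyMT (interval 0.51 to 0.69) on the log2 scale, and that of tip -1.68 (interval -1.72 to -1.64) and 0.34 (interval 0.32 to 0.37). The Car4/Cd300lg class was itself above the remaining blood vessel classes in KPC (log2 ratio 1.23) and below them in PyMT (-0.42). Its part in the opposite signs was not tested. Against all other blood vessel classes together, artery was 0.14 and 0.28 and tip -0.93 and 0.02. Tip thus kept opposite signs, and its difference in KPC no longer reached 2-fold. Thinned to 1500 UMIs before the class rule, KPC artery was past 2-fold below Car4/Cd300lg for Igfbp3, at -2.11.

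**Figure D2:**
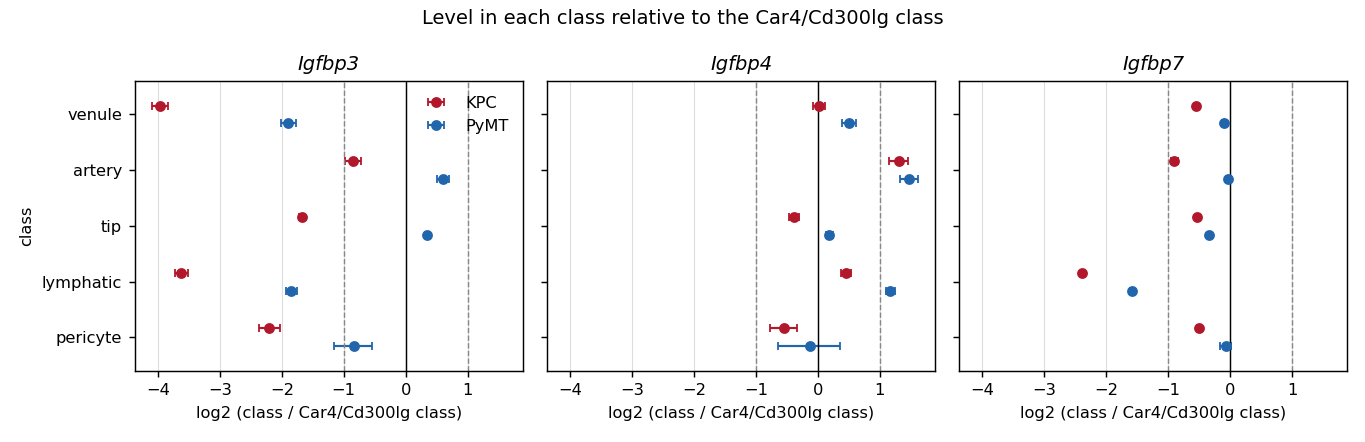
Log2 ratio (x axis) of the level in 5 classes (y axis) to the level in the Car4/Cd300lg class for Igfbp3, Igfbp4 and Igfbp7, in KPC (red) and PyMT (blue); bars are exact 95% intervals for counting error, the solid line marks 0 and the dashed lines a 2-fold difference. Igfbp3 in artery and tip lies on opposite sides of 0 in the 2 libraries, and the lymphatic points of Igfbp3 and Igfbp7 lie below -1 in both.

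The share of barcodes with an Igfbp3 UMI was 26.1% in KPC venule (interval 22.7 to 29.7) against 86.8% in the Car4/Cd300lg class (interval 84.9 to 88.6), and 36.7% (interval 31.7 to 41.9) against 74.0% (interval 72.3 to 75.7) in PyMT. After each barcode was thinned to 1500 UMIs the shares were 14.3% against 77.6% in KPC and 20.6% against 58.2% in PyMT. Tumor cells served as cells outside the vessel wall, with medians of 12688 UMIs in KPC and 6939 in PyMT. They held an Igfbp3 UMI in 30.6% and 51.7% of barcodes, or 7.08% and 21.4% after thinning. By level venule was above tumor in both libraries (183 against 56.4 CPM, and 372 against 247 CPM), while the order of the shares changed with thinning in KPC and did not follow the level in PyMT, so no order of venule and tumor cells is read from them. Whether tumor cells transcribe Igfbp3 was not tested. Among barcodes with immune markers and no Pecam1 or Cdh5 UMI, 1 of 26 in KPC and 2 of 4 in PyMT held Igfbp3. The KPC barcode held 12 UMIs, which gave 168 CPM (interval 86.9 to 294), and PyMT had 200 CPM (interval 24.2 to 722). On so few barcodes no order of venule and immune-marker barcodes is read.

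Between single barcodes at equal depth Igfbp3 spread widely. In the KPC Car4/Cd300lg class the median barcode held 3 Igfbp3 UMIs of 1500, the lower quartile 1 and the upper quartile 7, with 37 in the highest barcode. In the venule class the median was 0 in both libraries, and 1.38% of KPC and 1.87% of PyMT venule barcodes held 5 or more Igfbp3 UMIs. In artery 16.3% of KPC and 29.7% of PyMT barcodes did.

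The low level did not depend on where the venule threshold lay. Blood vessel barcodes with no Ackr1 or Selp UMI held 1791 CPM of Igfbp3 in KPC and 1867 CPM in PyMT, nearly the same level in both libraries. Barcodes 1 UMI short of the threshold held 302 and 552 CPM, those at the threshold 268 and 244 CPM, and those at 2 times the threshold or more 128 and 499 CPM. Most of the difference was therefore already present just outside the class, and beyond the threshold the level fell again in KPC and was higher in PyMT. Along Car4+Cd300lg UMIs the libraries ran in opposite directions. In KPC Igfbp3 was 1097 CPM with no UMI, 1559 CPM just below the threshold, 2127 CPM at it and 2360 CPM at 2 times the threshold or more, and in PyMT it was 2104, 1746, 1667 and 1214 CPM in the same bins. The median depth of these bins fell from 2942 to 2178 UMIs in KPC and was 3469 in the first and 5338 in the last bin in PyMT, and its part in the levels was not tested.

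**Figure D3:**
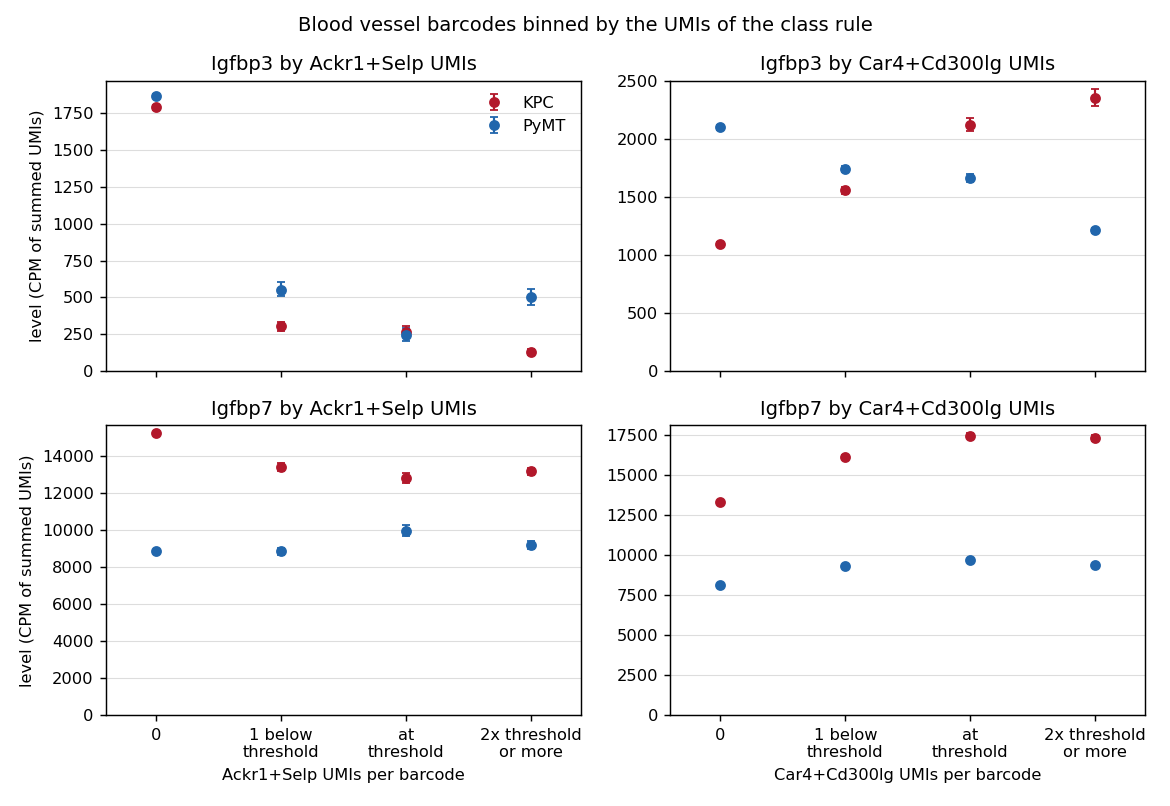
Level of Igfbp3 (top) and Igfbp7 (bottom) in CPM of summed UMIs (y axes, from 0) in blood vessel barcodes binned by Ackr1+Selp UMIs (left) and by Car4+Cd300lg UMIs (right); points are bin sums of KPC (red) and PyMT (blue) with exact 95% Poisson intervals. Igfbp3 was 1791 and 1867 CPM in barcodes with no Ackr1 or Selp UMI and at most 552 CPM in the other venule bins, and along Car4+Cd300lg it ran up in KPC and down in PyMT.

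Igfbp4, which restrains IGF action until the pappalysin PAPP-A cuts it, marked artery among the blood vessel classes. The artery level was 1323 CPM in KPC (interval 1201 to 1455) and 911 CPM in PyMT (interval 828 to 999), 2.48-fold and 2.77-fold above the Car4/Cd300lg class (534 and 329 CPM). The log2 ratios were 1.31 (interval 1.16 to 1.46) and 1.47 (interval 1.32 to 1.61), and against all other blood vessel classes together 1.28 and 1.11. Along the class score in KPC, Igfbp4 was 536 CPM in barcodes with no Gja5 or Sema3g UMI, 794 CPM just below the threshold, 804 CPM at it and 1592 CPM at 2 times the threshold or more, a bin of 37 barcodes. In PyMT the same bins held 421, 436, 734 and 1295 CPM. Venule held 541 CPM in KPC, not apart from Car4/Cd300lg (log2 ratio 0.02, interval -0.08 to 0.12), and 465 CPM in PyMT, where it was above it by 0.50 (interval 0.38 to 0.62). Tip held 407 and 374 CPM.

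Of the classes outside the blood vessels only fibroblasts exceeded artery for Igfbp4 in both libraries, while pericyte was lowest of the 9 classes (364 and 303 CPM) without being apart from the next class. Fibroblasts held 2600 CPM in KPC and 1233 CPM in PyMT (28 barcodes), tumor cells 1195 and 1042 CPM, and lymphatic barcodes 730 and 741 CPM. The lymphatic level was nearly the same in both libraries and stood above Car4/Cd300lg by 0.45 in KPC (interval 0.37 to 0.54) and 1.17 in PyMT (interval 1.09 to 1.25) on the log2 scale. Tumor barcodes alone held 35.5% of all KPC Igfbp4 UMIs against 11.8% in PyMT. They also held 10879363 of the 43850880 kept UMIs in KPC and 2944866 of 54761994 in PyMT, so these shares do not compare levels.

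Igfbp7 was present throughout the blood vessels. Before thinning, an Igfbp7 UMI was seen in 91.4% to 100% of the barcodes of every blood vessel class. The shares before thinning were also high in tumor barcodes (98.2% in KPC and 93.1% in PyMT) and lymphatic barcodes (91.9% and 91.3%). They therefore do not set the blood vessel classes apart. The Igfbp7 level was 12959 CPM in KPC venule, 10189 in artery, 13044 in tip, 18989 in Car4/Cd300lg and 15345 in other. In PyMT the same classes held 9415, 9882, 8000, 10078 and 8675 CPM. No blood vessel class departed from Car4/Cd300lg by 2-fold in either library, and the widest log2 ratio was -0.90 (interval -0.95 to -0.85) for artery in KPC, against -0.03 (interval -0.07 to 0.01) in PyMT. Venule was lower by 0.55 in KPC and by 0.10 in PyMT, and its Ackr1+Selp bins stayed between 12815 and 15263 CPM in KPC and between 8844 and 9968 CPM in PyMT. Tip was below Car4/Cd300lg in both libraries, with log2 ratios of -0.54 and -0.33.

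Lymphatic barcodes held far less Igfbp7, 3628 CPM in KPC and 3374 CPM in PyMT, which is 5.24-fold and 2.99-fold below Car4/Cd300lg (log2 ratios -2.39 and -1.58). Tumor cells held 1514 and 1413 CPM in much deeper barcodes, and immune-marker barcodes 1037 CPM (26 barcodes in KPC) and 400 CPM (4 in PyMT). At 1500 UMIs an Igfbp7 UMI was found in 86.3% and 87.7% of lymphatic barcodes and in 74.5% and 66.7% of tumor cells. Over the blood vessel classes the share at this depth ran from 94.2% in KPC artery to 100% in KPC Car4/Cd300lg. The part of RNA from outside the cells in the lymphatic and tumor values was not tested. In the lymphatic class the summed capillary markers were 1653 and 1300 CPM, against 14903 and 6261 CPM in Car4/Cd300lg. Pericyte barcodes held 13424 and 9580 CPM of Igfbp7, near the blood vessel classes. They also carried 3313 and 3966 CPM of 6 pan-endothelial markers, against 4340 to 6876 CPM over the blood vessel classes, and the part of endothelial RNA in the pericyte values was not tested.

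**Figure D4:**
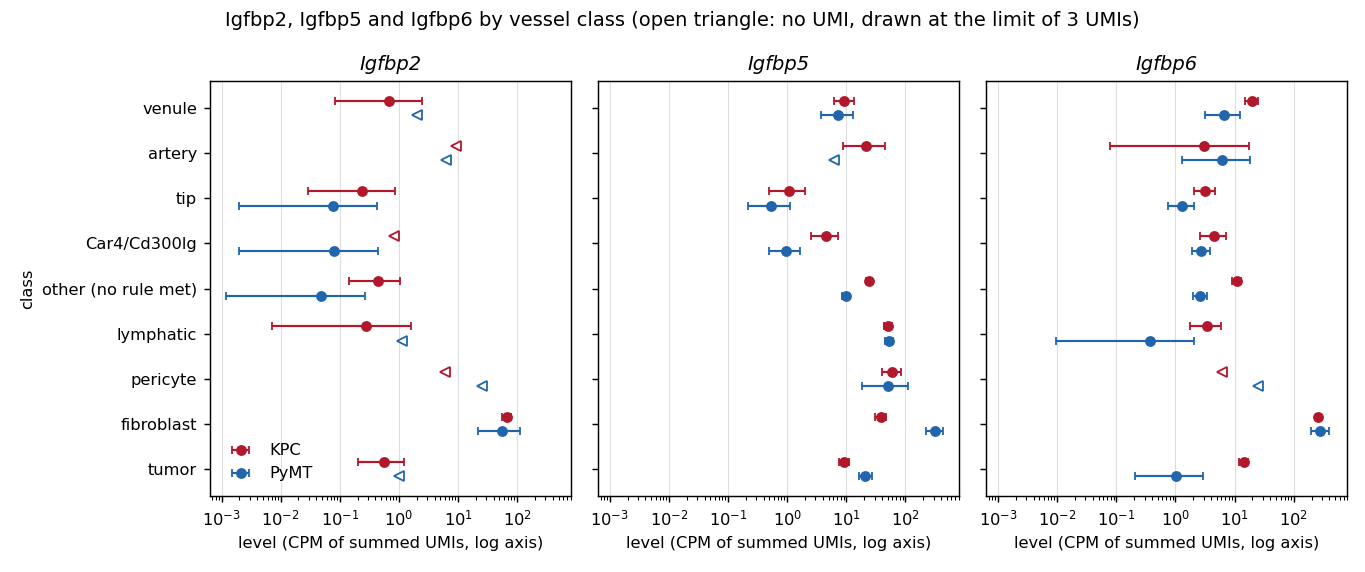
Level of Igfbp2, Igfbp5 and Igfbp6 (x axis, CPM of summed UMIs, log axis) in the 9 classes (y axis) of KPC (red) and PyMT (blue); bars are exact 95% Poisson intervals, and open triangles mark classes with no UMI, drawn at the limit of 3 UMIs. Igfbp2 and Igfbp6 peak in fibroblasts in both libraries, and Igfbp5 is near 50 CPM in lymphatic barcodes and at most 1.06 CPM in tip barcodes.

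Igfbp5, a matrix-binding member, was higher in lymphatic than in the 5 blood vessel classes of both libraries, though it was not apart from pericyte in either. Its lymphatic level was 50.3 CPM in KPC (178 UMIs, interval 43.2 to 58.3) and 53.2 CPM in PyMT (142 UMIs, interval 44.8 to 62.7), against 4.47 and 0.94 CPM in Car4/Cd300lg and 1.06 and 0.54 CPM in tip. The ratio to Car4/Cd300lg was 3.49 in KPC (interval 2.75 to 4.33) and 5.82 in PyMT (interval 4.97 to 6.80) on the log2 scale, from only 16 and 12 Igfbp5 UMIs in that class. The class other came between, at 24.3 CPM in KPC and 9.77 CPM in PyMT, and as the class with the most barcodes it held 37.5% and 42.5% of all Igfbp5 UMIs against 24.4% and 29.2% in lymphatic. The signal sat in few lymphatic cells. A UMI was found in 65 of 802 KPC barcodes (8.11%) and 38 of 633 PyMT barcodes (6.00%), or 5.45% and 4.20% at 1500 UMIs against 0.76% and 1.32% of tumor cells. In KPC 13 barcodes and in PyMT 5 barcodes held 50% or more of the lymphatic Igfbp5 UMIs. Of the barcodes with Igfbp5, 55 of 65 in KPC and 37 of 38 in PyMT had no UMI of the fibroblast genes Col1a1, Col1a2, Col3a1, Dcn or Lum. Of all lymphatic barcodes, 570 of 802 in KPC and 417 of 633 in PyMT had none. Lymphatic barcodes with no such UMI held 69.4 CPM in KPC and 87.5 CPM in PyMT, and those with one 21.8 and 0.95 CPM. The part of fibroblast RNA in these values was not tested.

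In some of the remaining classes Igfbp5 rested on 1 barcode, and in others it did not. In the class other its 274 KPC UMIs were spread over 97 barcodes and its 207 PyMT UMIs over 73, and KPC fibroblasts held 90 UMIs in 37 barcodes. Of the UMIs in other, 104 in KPC and 118 in PyMT lay in barcodes with no Pecam1 or Cdh5 UMI (369 and 405 barcodes). The level of other is therefore not read as an endothelial level. KPC artery showed 21.6 CPM, but 6 of its 7 UMIs came from 1 barcode. With the top barcode of each class left out, artery held 3.115 CPM against 3.079 CPM in Car4/Cd300lg. The log2 ratio was then 0.02 in place of 2.27. PyMT artery held none in 126 barcodes, with an interval up to 7.565 CPM. Venule held 9.22 CPM in KPC (27 UMIs in 6 barcodes) and 7.33 CPM in PyMT (11 UMIs in 6 barcodes), below the 10 CPM mean required of a comparison. Pericyte barcodes were at 59.0 CPM in KPC (29 UMIs in 18 of 119 barcodes, log2 ratio 3.72). They were at 50.4 CPM in PyMT, where 5 of 6 UMIs were in 1 barcode. With the top barcode of both classes left out, the PyMT ratio of 5.74 became 3.46. The highest PyMT level, 314 CPM in fibroblasts, came from 4 of 28 barcodes.

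Igfbp6, which prefers IGF2 over IGF1, was highest in fibroblasts. Fibroblasts held 254 CPM in KPC (interval 234 to 275, UMIs in 52.1% of barcodes) and 283 CPM in PyMT (interval 198 to 391, UMIs in 64.3% of 28 barcodes). No blood vessel class exceeded 19.5 CPM. That value, in KPC venule, was 4.35-fold above Car4/Cd300lg (log2 ratio 2.12, interval 1.30 to 3.02), but 30 of its 57 UMIs lay in 1 barcode that also held 105 UMIs of 5 fibroblast genes. Without this barcode the venule level was 9.25 CPM. Against Car4/Cd300lg without its own top barcode (4.197 CPM) the log2 ratio was 1.14. PyMT venule had 10 UMIs in 10 barcodes, or 6.67 CPM against 2.76 CPM. In the KPC class other, barcodes with a fibroblast-gene UMI held 37.1 CPM of Igfbp6 against 6.07 CPM in those without, and for Igfbp5 these levels were 69.6 and 16.1 CPM.

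Igfbp2, a member with an integrin-binding motif, was near the limit of detection outside fibroblasts. KPC fibroblasts held 156 of its 172 UMIs (66.0 CPM, interval 56.1 to 77.3) in 30 barcodes, and PyMT fibroblasts 7 of 10 UMIs (55.0 CPM, interval 22.1 to 113) in 2 barcodes. The blood vessel and lymphatic classes held 0 to 5 UMIs each, at most 0.68 CPM. In KPC Car4/Cd300lg no UMI was seen in 1297 barcodes, with an interval up to 1.03 CPM. Igfbp2 passed the level filter in no comparison.

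Read against all features with a mean of at least 10 CPM over both classes, the members' counts were as follows. Over venule against Car4/Cd300lg, 4 members passed this filter in KPC and 2 were past 2-fold (Igfbp3 lower, Igfbp6 higher), where 6.78% of 7893 features were. In PyMT 3 passed and 1 was past 2-fold (Igfbp3), where 4.28% of 7571 features were. For artery, 2 of 4 members were past 2-fold in KPC (Igfbp4 and Igfbp5 higher) and 1 of 3 in PyMT (Igfbp4), beside 15.9% and 13.6% of features. For tip, 1 of 3 was past 2-fold in KPC (Igfbp3 lower) and 0 of 3 in PyMT, beside 7.66% and 0.569% of features. For lymphatic, Igfbp3 and Igfbp7 were lower and Igfbp5 higher in both libraries, with Igfbp4 also past 2-fold in PyMT, so that 3 of 4 and 4 of 4 members were past 2-fold beside 16.6% and 11.7% of features. For pericyte it was 2 of 4 in KPC (Igfbp3 lower, Igfbp5 higher) and 1 of 4 in PyMT (Igfbp5 higher), beside 15.9% and 28.2% of features, the latter with 27 barcodes. Igfbp5 and Igfbp6 passed the filter only through the class where they were high, so their part in these counts was fixed by it. Without both, the counts were 1 of 3 for venule and for artery in KPC, 2 of 3 and 3 of 3 for lymphatic, and 1 of 3 and 0 of 3 for pericyte. They describe the members that passed and not the family.

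Between the tumor models, Igfbp7 was higher in KPC in the Car4/Cd300lg class (18989 against 10078 CPM, log2 ratio 0.91), in tip (0.71) and in venule (0.46), and did not differ beyond counting error in artery (0.04, interval -0.02 to 0.11). Igfbp3 went in both directions. It was higher in KPC in Car4/Cd300lg (log2 ratio 1.04, interval 1.01 to 1.08) and lower in KPC in venule (-1.03, interval -1.20 to -0.85), tip (-0.98, interval -1.02 to -0.94) and artery (-0.41, interval -0.57 to -0.26). With all barcodes thinned to 1500 UMIs before the class rule, the venule log2 ratio was 0.05 with a wide interval (-0.50 to 0.62). Thinning lowers depth, leaves out barcodes under 1500 UMIs and changes which barcodes are classed as venule, and these were not told apart. The ratio in Car4/Cd300lg was 1.52 after thinning and 0.76 when the class rule was read in reverse order. Igfbp4 was higher in KPC in Car4/Cd300lg (0.70), artery (0.54) and venule (0.22), and its tip ratio was 0.12. With thinning before the class rule, the Igfbp4 ratio was -0.19 in artery and -0.66 in tip. Car4/Cd300lg and venule kept their direction under all 9 alternatives, with lowest ratios of 0.50 and 0.07.

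Past 2-fold between the libraries were 2 of 4 members in venule (Igfbp3 lower, Igfbp6 higher in KPC) beside 3.83% of features, 1 of 4 in artery (Igfbp5) beside 16.7%, 0 of 3 in tip beside 3.15%, and 1 of 3 in Car4/Cd300lg (Igfbp3) beside 10.9%. The Igfbp6 and Igfbp5 counts came from the single barcodes named above, without which neither passed the filter, and both passed it only through the KPC level.

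Cycling cut across the classes. Blood vessel barcodes with 2 or more UMIs of Mki67 and Top2a held 620 CPM of Igfbp3 in KPC (787 barcodes) and 1082 CPM in PyMT (1530 barcodes), against 1745 and 2025 CPM in barcodes with none. By class sums Igfbp3 was lower in cycling barcodes in all 5 blood vessel classes of both libraries. Artery, with log2 ratios of -0.51 in KPC and -0.76 in PyMT, rests on only 9 and 5 cycling barcodes. The log2 ratio was -1.997 in KPC Car4/Cd300lg (interval -2.13 to -1.86), -1.63 in KPC other and -0.57 in KPC tip, and -0.64, -1.08 and -0.91 in the same PyMT classes. In venule it was -0.39 in KPC (interval -0.69 to -0.09), and in PyMT the interval held 0 (-0.17, interval -0.49 to 0.13). Igfbp7 was lower by less, with 11514 against 15943 CPM in KPC and 7765 against 9391 CPM in PyMT. Cycling barcodes were deeper, with medians of 6297 and 6694 UMIs against 2284 and 3533, and the part of depth was not tested.

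**Figure D5:**
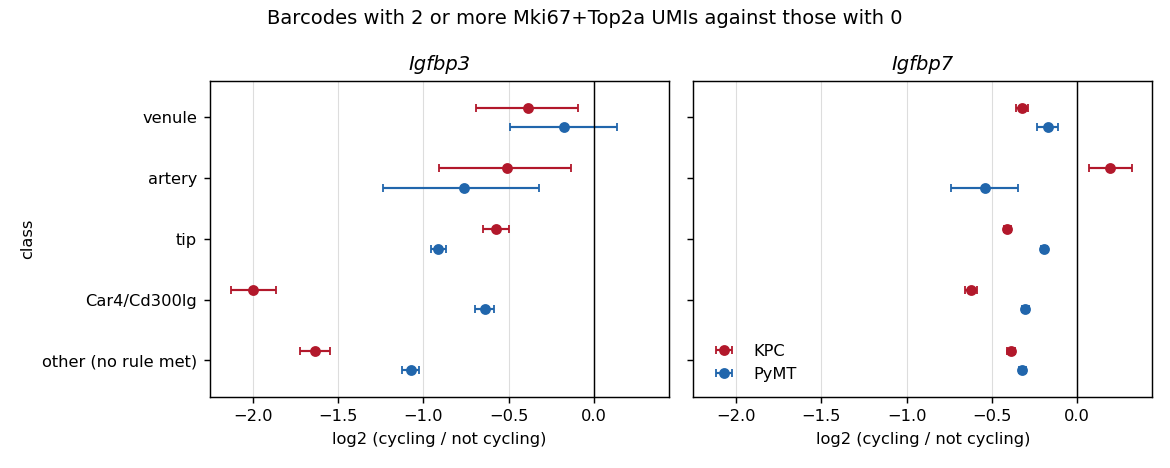
Log2 ratio (x axis) of the level in cycling barcodes (2 or more Mki67+Top2a UMIs) to that in barcodes with none, within each blood vessel class (y axis), for Igfbp3 and Igfbp7 in KPC (red) and PyMT (blue); bars are exact 95% intervals for counting error and the line marks 0. All 10 Igfbp3 points lie below 0, from -1.997 to -0.17, and of the Igfbp7 points only KPC artery, with 9 cycling barcodes, lies above 0.

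Of the 20 genes of the IGF system list (ligands, receptors, substrates, proteases and their inhibitors), 8 to 10 passed the level filter in each comparison. The ligands were low in blood vessel classes. Igf1 was 1014 CPM in KPC and 558 CPM in PyMT fibroblasts against 8.20 to 34.0 CPM over the blood vessel classes, and Igf2 had 3 UMIs in all. Igf1 was higher in lymphatic than in Car4/Cd300lg in both libraries (41.0 against 12.02 CPM and 67.5 against 12.4 CPM, log2 ratios 1.77 and 2.45). The receptor Igf1r stayed between 20.2 and 34.0 CPM in the blood vessel classes. The insulin receptor Insr was lower in lymphatic than in Car4/Cd300lg, with log2 ratios of -2.03 and -1.83, as was the IGFBP7 partner Cd93 (-2.55 and -1.73).

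Htra1, the protease that cuts IGFBPs, was highest in artery among the blood vessel classes, like Igfbp4. Its artery level was 599.7 CPM in KPC and 189 CPM in PyMT against 18.2 and 4.88 CPM in Car4/Cd300lg, log2 ratios of 5.04 and 5.27, and it was also higher in venule (1.36 and 2.13) and in pericyte (2.86 and 4.37). Outside the blood vessels, Htra1 was 311 CPM in KPC and 204 CPM in PyMT fibroblasts, and 11.5 and 180 CPM in tumor cells. In PyMT both were near the artery level. Lrp1, a receptor for IGFBP3, was higher in pericyte than in Car4/Cd300lg (5.26 and 5.60), with 42.7 and 42.0 CPM against 1.12 and 0.87 CPM. This rests on 21 Lrp1 UMIs in KPC and 5 in PyMT (4 of 27 barcodes), against 4 and 11. Fibroblasts held more Lrp1, 341 and 479 CPM. Pericyte barcodes carried 686 and 1109 CPM of 7 fibroblast markers, and the part of fibroblast RNA in their Lrp1 was not tested. By list, 2 of 9 genes in KPC and 2 of 10 in PyMT were past 2-fold in venule (6.78% and 4.28% of all features), 1 of 9 and 3 of 9 in artery (15.9% and 13.6%) and 3 of 9 and 0 of 9 in tip (7.66% and 0.569%). In lymphatic they were 6 of 9 and 3 of 8 (16.6% and 11.7%), and in pericyte 2 of 10 and 5 of 10 (15.9% and 28.2%). Between the libraries 2 of 10 were past 2-fold in venule (3.83%), 3 of 9 in artery (16.7%), 2 of 9 in tip (3.15%) and 3 of 9 in Car4/Cd300lg (10.9%). Some genes passed the filter only through the class where they were high, so their part in these counts was fixed by it. Among them were Lrp1 in pericyte of both libraries and Htra1 in PyMT artery, venule and pericyte. On so few genes nothing particular to the list is read from these counts. The list's median log2 ratio ran from -1.10 in KPC lymphatic to 0.88 in PyMT pericyte, where the medians over all features were 0.02 and 0.15.

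Of the 10 genes of IGFBP-related secreted proteins, a list that shares Htra1 with the previous one, 4 to 7 passed the level filter in each comparison. Ctgf was higher in venule (log2 ratios 1.25 in KPC and 1.74 in PyMT), tip (2.65 and 1.71) and pericyte (2.09 and 2.81), and Cyr61 in artery (1.55 and 2.04), both being matrix proteins of the CCN family. Esm1, an endothelial proteoglycan of tip cells, was higher in tip (1.27 and 2.26) and lower in venule (-3.00 and -1.51) and lymphatic (-2.25 and -1.37). Wisp1, another CCN protein, was lower in lymphatic (-2.12 and -1.31). Of the list, 4 of 5 genes in KPC and 3 of 5 in PyMT were past 2-fold in venule (6.78% and 4.28% of all features), and 4 of 7 and 5 of 5 in artery (15.9% and 13.6%), where the PyMT intervals of Ctgf (10 UMIs) and Wisp1 (3 UMIs) held 0. In tip they were 2 of 5 and 2 of 4 (7.66% and 0.569%), in lymphatic 3 of 5 and 2 of 4 (16.6% and 11.7%), and in pericyte 3 of 5 and 2 of 4 (15.9% and 28.2%). Between the libraries they were 1 of 4 in venule (3.83%), 4 of 7 in artery (16.7%), 3 of 5 in tip (3.15%) and 3 of 5 in Car4/Cd300lg (10.9%). In both counts of 4 of 7, Nov (6 UMIs) and Kazald1 (8 UMIs) passed the filter only through KPC artery, so their part was fixed by it. The same held for Wisp1 (6 UMIs) between the libraries. In PyMT Car4/Cd300lg, Ctgf (9.602 CPM) and Htra1 (4.88 CPM) were below 10 CPM. The part of Htra1 in the PyMT counts over that class was therefore fixed too. That of Ctgf was not, as its PyMT lymphatic ratio passed the filter at 0.13. Wisp1 was below 10 CPM in KPC venule, PyMT artery and both lymphatic classes, and passed there only through Car4/Cd300lg. Nothing particular to this list is read from so few genes either. Esm1 and Igfbp3 were both lower in venule in each library, while in KPC tip Esm1 was higher and Igfbp3 lower than in Car4/Cd300lg.

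Likeness was described over 12 points (the lymphatic, venule, artery, tip, Car4/Cd300lg and other classes of both libraries, centred within a library), among 5829 genes with a mean of at least 20 CPM for Igfbp3, Igfbp4 and Igfbp7. The points of a library share cells' chemistry, depth and the class rule. The genes with the highest Pearson r to Igfbp3 were Eif1 (0.97), Mpzl1 (0.96) and Cdc42ep1 (0.95), those nearest Igfbp4 were Col5a2 (0.98), Utrn (0.97) and Bmx (0.96), and those nearest Igfbp7 were Sp100 (0.98), Tmem88 (0.98) and Plcb1 (0.98). For Igfbp5, at a mean of 15.2 CPM, they were Gpbp1l1 (0.96), Kdm5a (0.93) and Ogt (0.92). Igfbp6, with Rapgef6 (0.93), Nsf (0.92) and Mvd (0.90), had a mean of 5.36 CPM. Igfbp2, with Eif2s3x (0.92), Srp72 (0.92) and Xrn2 (0.88), had a mean of 0.15 CPM, and the r of both rests on few UMIs. Each named r is among the 3 highest over more than 5829 or so candidate genes at 12 points, and it was high even for Igfbp2. The named genes are therefore a description only. Among the members themselves Igfbp3 and Igfbp7 had an r of 0.60, Igfbp3 and Igfbp4 of 0.04, and Igfbp5 and Igfbp7 of -0.68.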

How the data were processed

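Endothelial cells sorted from KPC and PyMT tumors were measured by droplet-based 3' single-cell RNA-seq in 1 library per tumor model (10236 and 12464 barcodes, 44441942 and 55547926 UMIs). Per the labels and matrix headers, the authors aligned reads to mm10 and counted UMIs with Cell Ranger 3.0 (header 3.0.2). The deposited counts are whole UMI counts per gene and barcode, without normalization, and the deposited feature and barcode names are other text fields used as labels. The sort removed cells positive for CD45, EpCAM, Ter119, podoplanin or annexin V before collecting BECs. The transgene features CreERT2 and TdTomato held 0 UMIs in both libraries.

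From these counts barcodes were filtered and classed as described, without a doublet caller, so doublets remain; leaving out the 8% of barcodes with the most UMIs was tried in its place. CPM are class sums with exact Poisson intervals, shares have Clopper-Pearson intervals, and log2 ratios have exact conditional intervals at 95%, all for counting error only. A count of 0 was set to 3 counts per class in ratios. A feature was past 2-fold at a log2 ratio of 1 or more, or -1 or less, given a mean of 10 CPM over both classes. No p-value was computed. All members, the list genes past 2-fold in the same direction in both libraries, and the 3 genes most like each member (log2(CPM + 1)) were named, besides fibroblast, depth and receptor values chosen after the data were seen. The members and lists were chosen with earlier results of these data known. The intervals were checked on class sums simulated with Poisson counting error (Python 3.11.15, numpy 2.4.6, scipy 1.17.1, pandas 2.3.3). That simulation held no spread among barcodes, so it cannot show whether the intervals cover such spread.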

Additional observations from a re-analysis of the deposited data

Results flagged for a closer look

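In 3 instances a member moved in opposite directions in the KPC and PyMT libraries under the same contrast, with both counting intervals leaving out 0. The difference was not tested, since each direction comes from 1 library. Igfbp3 in artery over Car4/Cd300lg had log2 ratios of -0.85 in KPC and 0.60 in PyMT. Igfbp3 in tip over Car4/Cd300lg had -1.68 and 0.34. Igfbp4 in tip over Car4/Cd300lg had -0.39 and 0.18. With all other blood vessel classes as the comparator, a choice made after the data were seen, the Igfbp3 artery values were 0.14 and 0.28, the Igfbp3 tip values -0.93 and 0.02, and the Igfbp4 tip values -0.61 and -0.25.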

How the results depend on the processing

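Igfbp3 in venule over Car4/Cd300lg kept its direction and stayed past 2-fold under all 10 alternatives in each library (log2 ratio -4.40 to -3.12 in KPC, -2.82 to -1.54 in PyMT), as did Igfbp4 in artery (1.09 to 1.82 and 1.11 to 2.20). Igfbp7 in lymphatic did so under all 9 (-2.89 to -2.28 and -2.02 to -1.49). Igfbp5 in lymphatic also stayed past 2-fold (3.52 to 5.76 and 5.29 to 7.01). It passed the level filter only through its lymphatic level, with 16 and 12 UMIs in Car4/Cd300lg, so no support is read from that. Of 469 member ratios under alternatives, 253 stayed within the main counting interval, 214 moved out of it and 2 past 2-fold changed sign. Igfbp3, KPC over PyMT in venule, was 0.052 at 1500 UMIs, and Igfbp5, KPC over PyMT in artery, was -0.98 without its top barcode. The Igfbp5 sign came from the floor and not from a higher PyMT level. PyMT artery had 0 Igfbp5 UMIs, set to 3 counts (6.152 CPM), against 3.115 CPM left in KPC artery. Counts of members past 2-fold moved as follows, and unless a value is given above the cause was not tested. In KPC over PyMT, the venule count of 2 became 1 with the stricter filter, thresholds raised by 1 UMI, the reverse order, thinning, and without the 8% of barcodes with the most UMIs, and 0 with mean CPM per barcode, without contaminating-marker barcodes, or without the top barcode. The tip count of 0 became 1 with raised thresholds, the reverse order, thinning, without the 8%, with mean CPM, without mitochondrial and ribosomal genes in the denominator, and without contaminating-marker barcodes. The artery count of 1 became 0 with raised thresholds, without contaminating-marker barcodes and without the top barcode, and the Car4/Cd300lg count of 1 became 0 with the stricter filter, the reverse order and the changed denominator. Over Car4/Cd300lg in KPC, the venule count of 2 became 1 with raised thresholds, the reverse order, mean CPM, without contaminating-marker barcodes and without the top barcode. The KPC artery count of 2 became 4 with thinning and mean CPM, and 1 without contaminating-marker barcodes, without the top barcode, or against all other blood vessel classes. The last comparator took the KPC tip count of 1 to 0, and thinning took the PyMT pericyte count of 1 to 2. With no level filter beyond 3 UMIs, 8.86% to 50.2% of features were past 2-fold.

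No paired analysis was possible because each tumor model has 1 library. Thinning left out 2160 KPC and 739 PyMT barcodes under 1500 UMIs. The top barcode of a member was left out of each class compared. This choice and the comparator of all other classes were made after the data were seen. Sparse members are limited by depth: 3 UMIs of a class amount to between 0.14 and 25.2 CPM.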

Other observations

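Lymphatic barcodes were not uniform for Igfbp7 in PyMT. The 25 barcodes with 2 or more UMIs of Stab2 and Ackr4 held 7894 CPM of Igfbp7 against 3103 CPM in the 590 with none (log2 ratio 1.35, interval 1.24 to 1.45) and 472 against 759 CPM of Igfbp4, and none of their UMIs was Igfbp5. In KPC only 2 such barcodes were found.

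The share of barcodes with Igfbp3 was compared between barcodes with and without an Igfbp4 UMI, at 1500 UMIs. In Car4/Cd300lg it was 78.4% with Igfbp4 against 76.9% without in KPC, and 62.4% against 55.9% in PyMT. In tip it was 50.7% against 44.2%, and 70.7% against 67.2%. In other it was 55.3% against 52.4%, and 68.8% against 66.8%. In venule it was 16.9% against 11.4% in KPC and 20.5% against 20.6% in PyMT, and in lymphatic 18.9% against 18.8% and 25.1% against 25.7%. In artery it was 52.5% against 68.0% in KPC and 61.3% against 69.8% in PyMT, on 25 and 43 barcodes without Igfbp4. No intervals were computed for these differences, so no direction is read from them.

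Barcodes of the class other that held no Pecam1 or Cdh5 UMI carried the members at other levels. In PyMT 405 such barcodes held 1523 CPM of Igfbp4, 452 CPM of Igfbp3 and 101 CPM of Igfbp5, and in KPC 369 such barcodes held 1039 CPM of Igfbp4, 1373 CPM of Igfbp3, 182 CPM of Igfbp5 and 96.2 CPM of Igfbp6.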
